A study of Mus musculus with 9 samples.

Results

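Reactive astrocyte marker genes are genes that astrocytes switch on, or raise, after damage to the brain or spinal cord. The set described here holds 32 genes chosen by name, and all 32 were found once each among the 34745 genes of the deposited tables. They were grouped by role as 4 intermediate filament genes, 2 transcription factor genes, 9 genes raised in astrocytes after several kinds of insult (called pan-reactive), 6 genes linked in mouse astrocytes to systemic lipopolysaccharide (the lipopolysaccharide set) and 11 linked to brain ischaemia (the ischaemia set). RNA was sequenced on day 7 from the spinal cords of C57BL/6 mice, wild type and 7 to 9 weeks old, in 3 libraries from injured mice given hyperbaric oxygen (HBO), 3 from mice with spinal cord injury (SCI) and 3 from uninjured mice (sham). The design text calls the uninjured group sham while its labels read as control without injury, so whether it had surgery could not be settled here. The labels give neither the level and kind of the lesion, nor the oxygen pressure and number of sessions, nor whether the libraries of a group came from separate animals, so the p values measure the spread between these libraries, which may be technical.

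Astrocytes support neurons, take up glutamate and potassium, and respond to injury by growing thicker processes rich in intermediate filaments, by dividing, and by forming a border around the lesion. Signals of the interleukin 6 family act through the transcription factor STAT3 in this response, and transforming growth factor beta, interleukin 1 and tumour necrosis factor also drive parts of it. Many of the marker genes are also made by other cells of an injured cord: Vim and Cd44 by fibroblasts and macrophages, Srgn and Cd14 by blood-derived and resident myeloid cells, and Tm4sf1 and Emp1 by endothelial or epithelial cells. In bulk tissue, a change in the number of cells of a type and a change in RNA per cell cannot be told apart.

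The libraries held 11159587 to 15715484 counts. The 32 genes took 0.91%, 0.87% and 0.882% of the counts in HBO, 1.064%, 0.938% and 1.015% in SCI, and 0.317%, 0.552% and 0.588% in sham. Levels below are CPM, counts scaled to the size of the library after correction by the trimmed mean of M values (TMM), and differences are log2 fold changes with a standard error (SE) from edgeR's quasi-likelihood test, called where the Benjamini-Hochberg adjusted p over 17901 tested genes was under 0.05. Of the 32 genes, 31 had enough counts to be tested, and Slc10a6 did not. Some libraries stood apart from the others of their group. Sham 3 had a summed level of 4 Schwann cell markers of 273 CPM, against 3.67 CPM in sham 1 and 3.69 CPM in sham 2. SCI 1 had the highest sums for skeletal muscle markers (454 CPM) and erythroid markers (1296 CPM) of the 9 libraries. HBO 3 had 6.545% of its counts on mitochondrial genes, against 2.971% to 4.066% in the other 8, and the highest neutrophil marker sum (303 CPM). Values without these libraries stand beside the counts that follow.

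After injury most of the marker genes rose. In SCI against sham, 23 of the 31 tested genes were called higher and 0 were called lower, against 20.0% of all tested genes called higher and 16.6% called lower. The 23 include B3gnt5, which passed the low-count filter through the injured libraries and not through sham alone. No member fell at an unadjusted p under 0.05, and DESeq2 and limma each also called 23. The median log2 fold change of the 31 was 1.28, against 0.00 over all tested genes, and 18 genes rose by more than 2-fold. In 24 of the 31, every SCI library lay above every sham library, which was so for 27.6% of all tested genes. Of the same 31 genes, 23 were called without sham 3 and 20 without SCI 1. Without sham 3, Slc10a6 passed the filter through injured libraries only, with 0 counts in sham 1 and sham 2, so it is not counted. The mean level per transcript length was highest for Gfap in all 3 groups, at 1292 ± 113 FPKM (a level scaled for library size and transcript length) in HBO, 1444 ± 72.8 FPKM in SCI and 754 ± 236 FPKM in sham (SD, n = 3 each). Serpina3n came next and Vim after it in each group. Gfap alone made up 63.9% to 72.8% of the summed CPM of the 32 genes in HBO, 64.4% to 70.7% in SCI and 70.8% to 77.3% in sham.

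**Figure D1:**
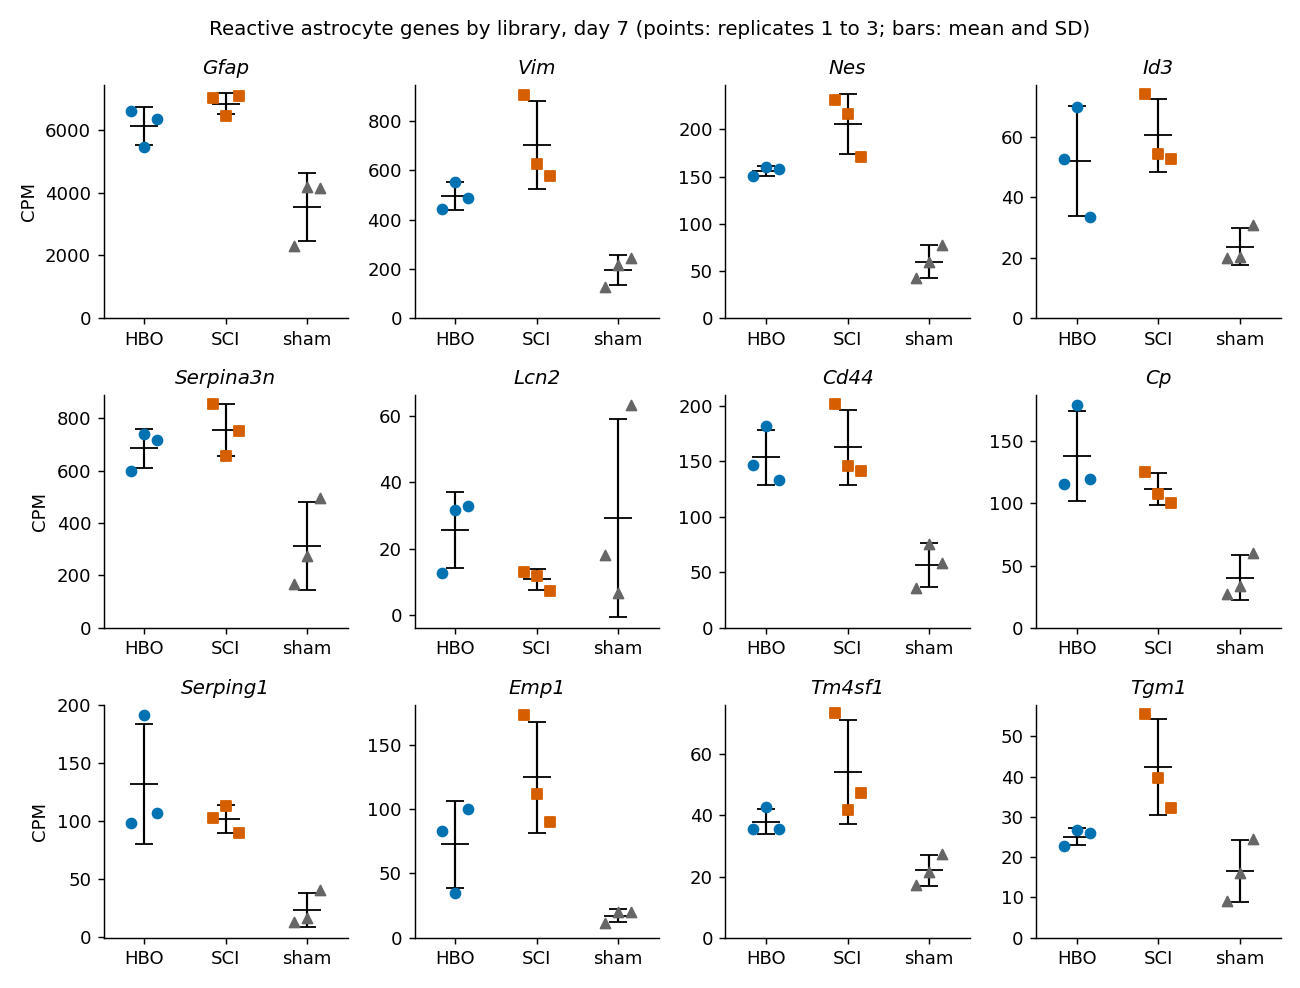
CPM of 12 marker genes in the HBO, SCI and sham libraries (points, replicates 1 to 3 from left to right in each group), with the mean and SD of 3 libraries as a bar. Nes, Vim, Cd44, Cp, Serping1 and Emp1 lie higher in every HBO and SCI library than in any sham library, while Lcn2 has its highest value in sham 3 at 63.1 CPM.

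Of the 4 intermediate filament genes, Gfap, Vim and Nes rose in SCI and Synm was not called. Nes encodes nestin, a filament protein of neural progenitors that reactive astrocytes express again, and lies on chromosome 3 (chr3:87971078-87980451, GRCm38). It measured 151, 160.3 and 158 CPM in HBO, 231, 216 and 170.5 CPM in SCI, and 42.1, 59.3 and 77.4 CPM in sham. Every injured library, treated or not, lay above every sham library, and the highest HBO library lay below the lowest SCI library. The log2 fold change of Nes in SCI against sham was 1.79 ± 0.20 (edgeR adjusted p = 0.000516).

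Vim encodes vimentin, which assembles with the Gfap protein in reactive astrocytes and is common in fibroblasts, endothelium and macrophages. Its levels were 444, 554 and 489 CPM in HBO, 908, 624 and 576 CPM in SCI, and 126, 217 and 243 CPM in sham. SCI 1 stood well above the other SCI libraries, and the 3 groups did not overlap. Vim was 3.59-fold higher in SCI than in sham (log2 1.84 ± 0.25, edgeR adjusted p = 0.000787).

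Gfap encodes the glial fibrillary acidic protein, the filament by which reactive astrocytes are usually recognised (chr11:102887336-102900912). It measured 6619.7, 5461 and 6363 CPM in HBO, 7014, 6452 and 7092 CPM in SCI, and 2295, 4190.2 and 4157 CPM in sham. Sham 1 was the lowest library, and no sham library reached the lowest HBO library. The increase of Gfap in SCI over sham was 1.93-fold (log2 0.95 ± 0.22, edgeR adjusted p = 0.00854), smaller than that of Vim or Nes. Synm encodes synemin, a filament protein that pairs with vimentin; its means were 149 ± 22.4 CPM in HBO, 154 ± 19.7 CPM in SCI and 134 ± 14.2 CPM in sham (SD, n = 3 each), with overlapping groups and a log2 difference of 0.19 ± 0.14 in SCI against sham (edgeR adjusted p = 0.325).

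Of the transcription factor genes, Id3 rose and Sox9 was not called. Id3 encodes an inhibitor of basic helix-loop-helix factors that responds to bone morphogenetic protein signals. Its levels were 52.6, 69.9 and 33.3 CPM in HBO, 74.2, 54.3 and 52.6 CPM in SCI, and 19.8, 20.1 and 30.7 CPM in sham. All 6 injured libraries lay above the sham libraries, HBO 3 only just, and the log2 fold change in SCI against sham was 1.36 ± 0.27 (edgeR adjusted p = 0.00408). Sox9 encodes the factor that specifies astrocytes and is present in nearly all of them. It measured 72.8, 60.9 and 64.8 CPM in HBO, 71.1, 79.8 and 79.3 CPM in SCI, and 49.7, 69.2 and 69.5 CPM in sham. The SCI libraries lay above the sham libraries by a small margin, and the difference of 0.29 ± 0.14 on the log2 scale was not called (edgeR adjusted p = 0.133).

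Of the 9 pan-reactive genes, 7 rose in SCI against sham (Cd44, Osmr, Cp, Hspb1, Serpina3n, S1pr3 and Aspg) and Lcn2 and Steap4 were not called. Cd44 encodes the receptor for the matrix sugar hyaluronan. It measured 146, 181 and 134 CPM in HBO, 202, 146 and 141 CPM in SCI, and 35.5, 75.9 and 58.3 CPM in sham, so that all injured libraries lay above sham while HBO and SCI overlapped. Its log2 fold change in SCI against sham was 1.53 ± 0.25 (edgeR adjusted p = 0.00189).

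Osmr encodes the receptor subunit for oncostatin M, an interleukin 6 family cytokine that signals through STAT3. Its levels were 90.0, 126 and 116 CPM in HBO, 132, 95.4 and 103 CPM in SCI, and 21.4, 41.0 and 49.3 CPM in sham. The HBO and SCI libraries covered the same range, well above sham, with a log2 fold change of 1.57 ± 0.27 in SCI against sham (edgeR adjusted p = 0.00213). Cp encodes ceruloplasmin, the copper protein that oxidises iron for export and is made by astrocytes in the central nervous system. It measured 116, 179 and 119 CPM in HBO, 125, 108 and 100.4 CPM in SCI, and 26.8, 33.5 and 60.5 CPM in sham. HBO 2 was the highest library of all 9, and Cp rose by 1.46 ± 0.28 on the log2 scale in SCI against sham (edgeR adjusted p = 0.00338).

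Serpina3n encodes a secreted serine protease inhibitor and is among the strongest markers of reactive astrocytes in mouse. It measured 600.3, 742 and 716 CPM in HBO, 855, 656 and 754 CPM in SCI, and 167, 274 and 495 CPM in sham. The sham libraries were spread widely, with sham 3 highest and still below every injured library. Serpina3n was 2.42-fold higher in SCI than in sham (log2 1.28 ± 0.31, edgeR adjusted p = 0.0102). Hspb1, which encodes a small heat shock protein, averaged 74.0 ± 26.8 CPM in HBO, 117 ± 39.6 CPM in SCI and 39.4 ± 16.3 CPM in sham (SD, n = 3 each) and rose by 1.57 ± 0.35 on the log2 scale in SCI (edgeR adjusted p = 0.0069). Its count is uncertain, because 46.4% of the 75-base words in its transcripts also occur in the pseudogenes Hsp25-ps1 and Gm9817, among which the authors' counting could have divided reads. For the other members that share was at most 6.05%, in Clcf1. S1pr3, a receptor for sphingosine 1-phosphate, and Aspg, an asparaginase, had smaller increases of 0.70 ± 0.22 and 0.78 ± 0.26 (edgeR adjusted p of 0.0291 for S1pr3 and 0.0396 for Aspg). Neither call held without SCI 1, SCI 2, sham 1 or sham 2, nor did that of Aspg without SCI 3, with log2 values over these fits of 0.50 to 0.72 for S1pr3 and 0.61 to 0.87 for Aspg.

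Lcn2 did not follow the others. It encodes lipocalin 2, an iron-carrier-binding protein released by reactive astrocytes and also stored by neutrophils. It measured 12.6, 31.6 and 32.9 CPM in HBO, 13.1, 11.8 and 7.19 CPM in SCI, and 18, 6.59 and 63.1 CPM in sham. Sham 3 had the highest value of all 9 libraries and sham 2 the lowest, and the groups overlapped. The log2 difference in SCI against sham was -1.45 ± 0.66 and was not called (edgeR adjusted p = 0.112); it was -0.20 without sham 3 and -1.92 without sham 2, where it was called lower. The summed level of 7 neutrophil markers was 67.6, 34 and 303 CPM in HBO, 50.2, 48.8 and 28.0 CPM in SCI, and 74.2, 18 and 54.5 CPM in sham, and its part in the level of Lcn2 was not tested. Steap4, a metalloreductase, was spread almost as widely, at 6.53 to 35.3 CPM in HBO, 6.26 to 16.3 CPM in SCI and 1.59 to 13.2 CPM in sham, and was not called (log2 0.75 ± 0.75, edgeR adjusted p = 0.469).

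Of the 6 genes of the lipopolysaccharide set, Serping1, Ggta1, Fbln5, Fkbp5 and Srgn rose in SCI and Amigo2 was not called. Serping1 encodes the inhibitor of complement component C1. It measured 98.0, 191 and 107 CPM in HBO, 103, 113 and 89.3 CPM in SCI, and 13.3, 16.4 and 40.3 CPM in sham. Every injured library lay above sham 3, the highest sham library, and HBO 2 stood above all others. The log2 fold change in SCI against sham was 2.12 ± 0.39 (edgeR adjusted p = 0.00294), and it was 2.78 without sham 3.

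Ggta1 encodes a galactosyltransferase that makes the alpha-gal sugar of non-primate mammals. Its levels were 18, 40.1 and 23.2 CPM in HBO, 41.1, 30.1 and 37.3 CPM in SCI, and 7.89, 12.2 and 13.0 CPM in sham. The groups of injured mice overlapped each other and not sham, and Ggta1 rose by 1.71 ± 0.29 on the log2 scale in SCI (edgeR adjusted p = 0.0022). Fbln5 encodes fibulin 5, a protein of elastic fibres, and measured 29.3, 36.4 and 20.9 CPM in HBO, 28.8, 26.8 and 26.3 CPM in SCI, and 10.4, 9.58 and 15.1 CPM in sham. The 3 SCI libraries lay close together, 1.22 ± 0.22 above sham on the log2 scale (edgeR adjusted p = 0.00275).

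Srgn, the core protein of a proteoglycan of secretory granules in blood cells, rose by 2.13 ± 0.48 on the log2 scale (edgeR adjusted p = 0.00694), with means of 37.3 ± 20.9 CPM in HBO, 43.0 ± 22.1 CPM in SCI and 9.80 ± 4.14 CPM in sham (SD, n = 3 each). Fkbp5, a co-chaperone that the glucocorticoid receptor induces, had 106 CPM in SCI 1 and 39.1 CPM in SCI 2, below the 41.6 CPM of sham 3. Its increase of 1.08 ± 0.33 (edgeR adjusted p = 0.0261) was not called without SCI 1, sham 1 or sham 2, and was 0.66 without SCI 1. Amigo2, a cell adhesion protein, averaged 6.59 ± 1.56 CPM in HBO, 8.08 ± 1.03 CPM in SCI and 9.47 ± 1.02 CPM in sham (SD, n = 3 each), a log2 difference of -0.23 ± 0.20 in SCI (edgeR adjusted p = 0.407).

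Of the 11 genes of the ischaemia set, 7 of 10 tested rose in SCI: Emp1, Tm4sf1, Cd109, B3gnt5, Tgm1, S100a10 and Clcf1. Emp1 encodes a small membrane protein of epithelia (chr6:135362545-135383173). It measured 82.5, 34.3 and 100.2 CPM in HBO, 173, 111 and 89.8 CPM in SCI, and 11.3, 20 and 20 CPM in sham. SCI 1 was highest, and the sham libraries lay below all others. Emp1 had the largest increase of the 31 genes in SCI against sham, 7.30-fold (log2 2.87 ± 0.40, edgeR adjusted p = 0.000913).

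Tm4sf1 encodes a membrane protein abundant in endothelium. Its levels were 35.6, 42.7 and 35.4 CPM in HBO, 73.5, 41.6 and 47.3 CPM in SCI, and 17.3, 21.5 and 27.4 CPM in sham. HBO and SCI overlapped by 1 library, HBO 2, and both lay above sham, with a log2 fold change of 1.30 ± 0.23 in SCI (edgeR adjusted p = 0.00245). Cd109 encodes a surface protein that binds transforming growth factor beta, and measured 61.8, 81.5 and 78.5 CPM in HBO, 98.0, 70.2 and 87.1 CPM in SCI, and 17.7, 38.3 and 36.7 CPM in sham. Both injured groups covered a similar range, and Cd109 rose by 1.46 ± 0.26 in SCI (edgeR adjusted p = 0.00246).

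Tgm1 encodes a transglutaminase that cross-links proteins. It measured 22.7, 26.7 and 25.9 CPM in HBO, 55.5, 39.8 and 32.2 CPM in SCI, and 9.09, 16 and 24.5 CPM in sham. The SCI libraries lay above all others, while the HBO libraries overlapped sham 3. Tgm1 rose by 1.36 ± 0.31 on the log2 scale in SCI against sham (edgeR adjusted p = 0.0071). S100a10, the partner of annexin A2, rose by 0.82 ± 0.17 (edgeR adjusted p = 0.00495) and B3gnt5, which starts a family of glycolipids, by 2.06 ± 0.46 (edgeR adjusted p = 0.00633), with B3gnt5 means of 2.31 ± 1.07 CPM in HBO, 3.63 ± 0.946 CPM in SCI and 0.874 ± 0.377 CPM in sham (SD, n = 3 each). By limma on log2 FPKM the value for B3gnt5 in SCI was 1.09. B3gnt5 was over the filter minimum in only 2 sham libraries and was tested through the injured ones, so its call is no separate evidence of a rise. Clcf1, a cytokine of the interleukin 6 family, rose by 0.77 ± 0.25 (edgeR adjusted p = 0.0351), a call not kept without SCI 2 (0.52), sham 1 or sham 2.

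The remaining genes of the ischaemia set gave no call in SCI against sham. Ptx3, a secreted pentraxin, differed by 0.47 ± 0.36 on the log2 scale (edgeR adjusted p = 0.335), Sphk1, a sphingosine kinase, by 0.42 ± 0.26 (edgeR adjusted p = 0.236) and Cd14, a co-receptor for lipopolysaccharide, by 0.73 ± 0.35 (edgeR adjusted p = 0.124). Without sham 1, the sham library with the highest Cd14, the difference for Cd14 was 1.17 and was called. Slc10a6, a transporter of steroid sulphates, had 6, 8 and 10 counts in HBO, 28, 6 and 7 counts in SCI, and 0, 0 and 6 counts in sham. SCI 1 held the most counts and sham the fewest, and no fold is given at these counts.

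**Figure D2:**
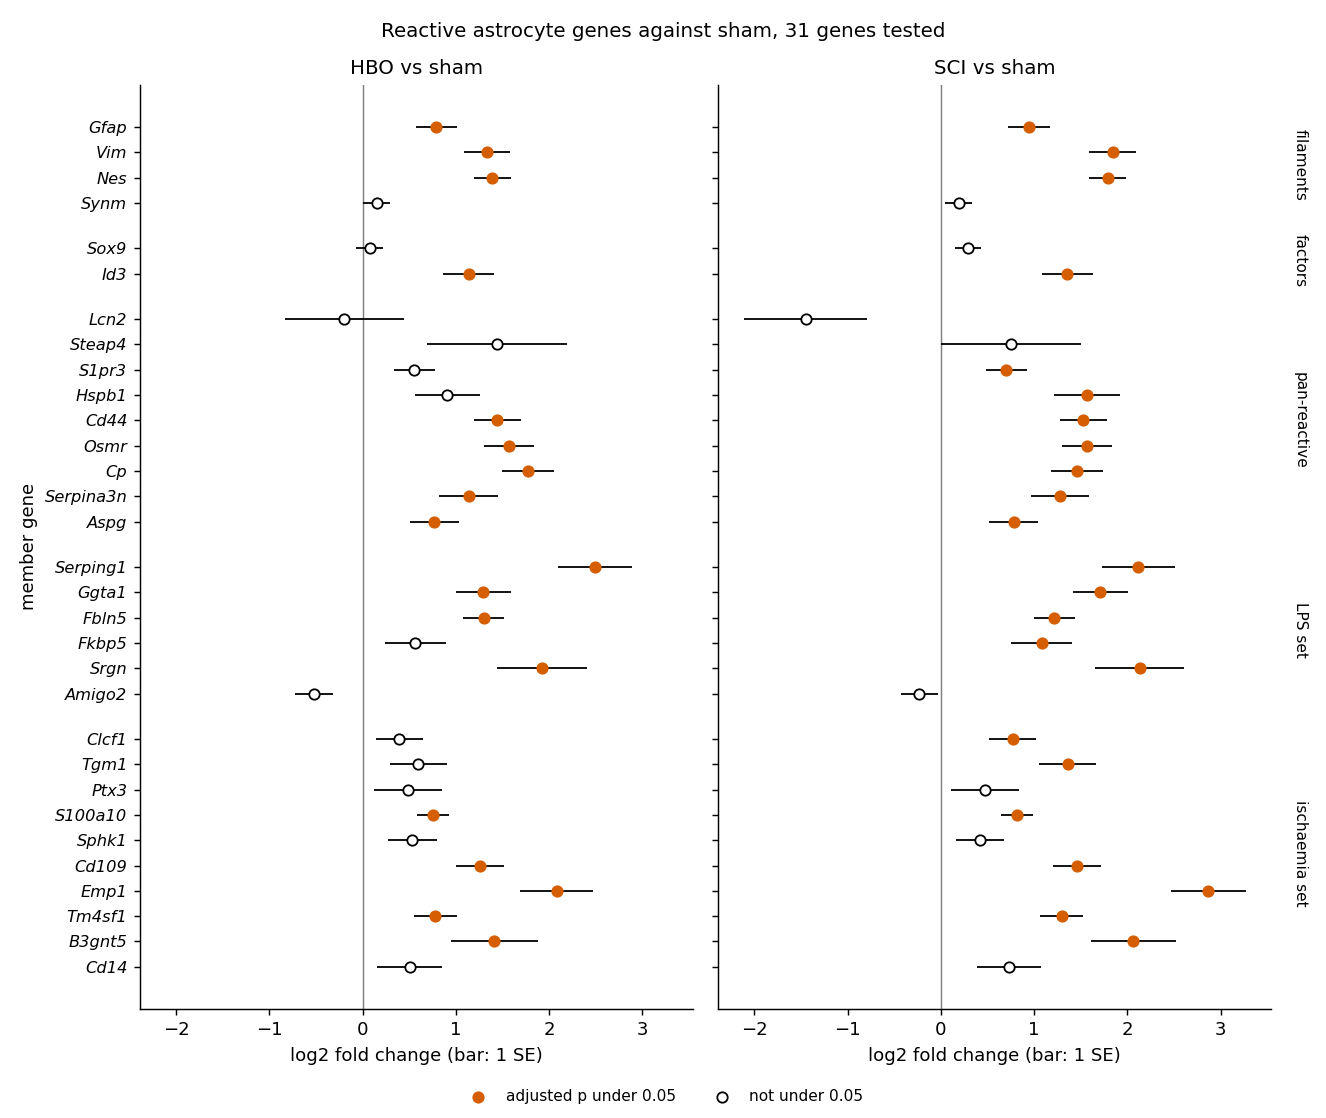
Log2 fold change with 1 SE for the 31 tested genes by role, HBO against sham on the left and SCI against sham on the right, both set against the same 3 sham libraries; filled points had an edgeR adjusted p under 0.05. Filled points number 18 on the left and 23 on the right, all to the right of 0, and Emp1 has the largest value in SCI at 2.87.

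Sequence before annotated transcript starts was searched to show which letters the windows of the member genes hold, called or not. RefSeq windows of 250 bases before each annotated start (GRCm38.p6) were matched for 26 of the 32 genes, in 35 windows, and searched on both strands for STAT (TTCNNNGAA), AP-1 (TGANTCA), C/EBP (TTNNGNAA) and a spaced glucocorticoid receptor pair (ACANNNTGT). A STAT match lay in 5 of the 35 member windows, against 7.02% of 32851 windows of all genes, in windows of Emp1, Sphk1, Steap4 and Tgm1. An AP-1 match lay in 4 windows (Cp, Emp1 and Sphk1), against 6.75% of all. A C/EBP match lay in 17 windows of 14 genes, against 36.8% of all, and a glucocorticoid receptor pair in 4 windows (Lcn2, Serpina3n, Slc10a6 and Tm4sf1), against 5.84% of all. No match lay in the window of Gfap, Cd44 or Osmr. Overlapping windows of Sphk1 hold the same STAT, AP-1 and C/EBP sites, so these sites enter the window counts more than once. These matches describe letters and show no binding.

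The 4 windows below belong to the genes with the smallest p values in SCI against sham among those with a match. Vim was left out because its window lies wholly within annotated exons. The 4 windows are printed 5′ to 3′ on the gene's strand without bases in annotated exons, with matches in capitals. The stretches of Emp1 and Ggta1 lie inside the annotated gene, before a start other than its outermost one. Nes (chr3:87970843-87971077, plus strand, 235 bases) holds a run of overlapping C/EBP matches from 209 to 201 bases before the start. Emp1 (chr6:135362708-135362903, plus strand, 196 bases) holds an AP-1 match, TGAGTCA, and then a STAT match, TTCTTTGAA. Ggta1 (chr2:35461450-35461699, minus strand) holds a C/EBP match, and Tm4sf1 (chr3:57301989-57302238, minus strand) holds a glucocorticoid receptor pair, ACAGTCTGT, followed by a C/EBP match.
Nes: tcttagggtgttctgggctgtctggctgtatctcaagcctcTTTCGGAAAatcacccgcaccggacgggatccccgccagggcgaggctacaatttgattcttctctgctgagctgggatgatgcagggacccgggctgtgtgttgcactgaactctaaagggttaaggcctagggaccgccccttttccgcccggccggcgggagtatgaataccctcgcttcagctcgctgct
Emp1: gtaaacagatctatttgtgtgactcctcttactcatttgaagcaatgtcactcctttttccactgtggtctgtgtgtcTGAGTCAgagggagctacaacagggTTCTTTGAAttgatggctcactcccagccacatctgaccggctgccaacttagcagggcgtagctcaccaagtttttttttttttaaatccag
Ggta1: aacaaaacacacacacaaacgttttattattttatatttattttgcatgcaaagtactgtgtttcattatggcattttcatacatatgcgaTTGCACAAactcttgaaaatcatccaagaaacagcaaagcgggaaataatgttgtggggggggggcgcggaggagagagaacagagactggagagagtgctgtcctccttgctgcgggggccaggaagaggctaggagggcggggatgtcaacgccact
Tm4sf1: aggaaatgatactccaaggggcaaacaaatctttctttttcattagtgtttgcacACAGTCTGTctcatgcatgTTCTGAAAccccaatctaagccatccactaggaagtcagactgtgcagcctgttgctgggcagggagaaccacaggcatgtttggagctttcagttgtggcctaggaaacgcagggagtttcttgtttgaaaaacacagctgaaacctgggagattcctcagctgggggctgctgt

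The comparison of HBO with SCI asks what oxygen treatment changed in the injured cord. None of the 31 genes was called: 0 by edgeR, where 0.0% of all 17901 tested genes were called and the lowest adjusted p of any gene was 0.806, 0 by DESeq2, which called 0.151% of all genes, and 0 by limma on log2 FPKM. At an unadjusted p under 0.05 there were 2 members, both lower in HBO, against 4.18% of all tested genes. Of the 31 log2 differences, 23 were below 0 and 8 above, with a median of -0.20, while over all genes 49.46% were above 0. Without SCI 1, the library highest in its group for 24 of the 31 genes, 18 were below 0 and 13 above, with a median of -0.04. Without HBO 2, the highest in HBO for 23 of the 31, 27 were below 0 and 4 above, with a median of -0.28, and without HBO 3 there were 21 below and 10 above, with a median of -0.17. Every HBO library lay below every SCI library for 4 genes, Vim, Nes, Clcf1 and Tgm1, against 4.07% of all tested genes, and every HBO library lay above every SCI library for 0, against 3.96% of all.

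The genes with the smallest unadjusted p were Tgm1, Tm4sf1, Emp1 and Vim. Tgm1 had the smallest, with all 3 HBO libraries at 22.7 to 26.7 CPM below all SCI libraries at 32.2 to 55.5 CPM. Its log2 difference in HBO against SCI was -0.76 ± 0.30 (edgeR adjusted p = 0.959). The difference was -0.51 ± 0.22 for Tm4sf1 and -0.79 ± 0.37 for Emp1, where HBO 2 at 34.3 CPM was the lowest injured library. For Vim it was -0.50 ± 0.24 with no overlap, and for Nes -0.40 ± 0.19 with no overlap. For Gfap the difference was -0.16 ± 0.22, with HBO 1 at 6619.7 CPM above SCI 2 at 6452 CPM. All of these had an edgeR adjusted p of 0.959 or more.

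Other members differed in the opposite direction or hardly at all. Lcn2 was at 31.6 and 32.9 CPM in HBO 2 and HBO 3 and 12.6 CPM in HBO 1, against 7.19 to 13.1 CPM in SCI, a log2 difference of 1.26 ± 0.66 (edgeR adjusted p = 0.959). Cp differed by 0.31 ± 0.27 and Serping1 by 0.38 ± 0.37, each with its highest value in HBO 2. Osmr differed by 0.01 ± 0.26, Aspg by -0.01 ± 0.26 and Ptx3 by 0.02 ± 0.36. By role, 4 of 4 filament genes, 2 of 2 factor genes, 5 of 9 pan-reactive genes, 4 of 6 of the lipopolysaccharide set and 8 of 10 of the ischaemia set had a value below 0, none called.

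**Figure D3:**
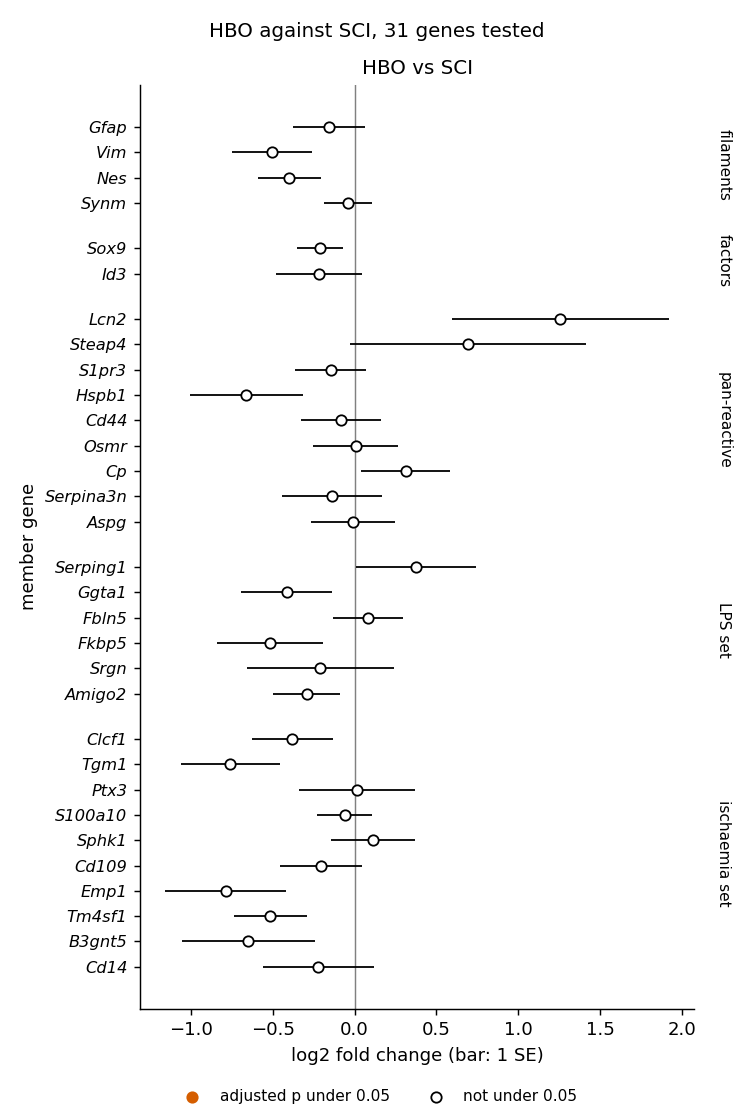
Log2 difference of HBO against SCI with 1 SE for the 31 tested genes by role. All points are open (no edgeR adjusted p under 0.05), 23 lie left of 0 and 8 right of it, and Lcn2 has the highest value at 1.26.

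In HBO against sham, 18 of the 31 tested genes rose and 0 were called lower, against 17.4% of all tested genes called higher and 13.5% called lower. The 18 include B3gnt5, which passed the filter through the injured libraries and not through sham alone. This comparison uses the same sham libraries as that of SCI with sham, so the counts are not independent. At an unadjusted p under 0.05, 20 were higher and 1, Amigo2, was lower; DESeq2 called 19 and limma 16. The median log2 fold change was 0.91, and in 17 genes every HBO library lay above every sham library, against 24.2% of all tested genes. Of the same 31 genes, 20 were called without sham 3, with Slc10a6 again not counted. The count was 13 without sham 1, 13 without sham 2 and 15 without HBO 3.

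By role, 3 of 4 filament genes, 1 of 2 factor genes, 5 of 9 pan-reactive genes, 4 of 6 of the lipopolysaccharide set and 5 of 10 of the ischaemia set rose in HBO. The smallest p was that of Nes, at 2.62-fold (log2 1.39 ± 0.20, edgeR adjusted p = 0.00121), followed by Serping1 at 5.64-fold (log2 2.495 ± 0.395, edgeR adjusted p = 0.00193), which was 3.15 on the log2 scale without sham 3. Cp rose by 1.78 ± 0.28 (edgeR adjusted p = 0.00193) and Osmr by 1.57 ± 0.27 (edgeR adjusted p = 0.00266). Gfap rose by 0.79 ± 0.22 (edgeR adjusted p = 0.0224), a call not kept without sham 1 (0.56) or HBO 3. Emp1 rose by 2.08 ± 0.39, Srgn by 1.92 ± 0.48, Cd44 by 1.44 ± 0.25, Vim by 1.34 ± 0.25, Fbln5 by 1.30 ± 0.22, Ggta1 by 1.29 ± 0.29, Cd109 by 1.26 ± 0.26, Id3 by 1.14 ± 0.27, Serpina3n by 1.14 ± 0.31 and S100a10 by 0.76 ± 0.17. The calls of Aspg (0.77), B3gnt5 (1.41) and Tm4sf1 (0.78) depended on more libraries: Aspg was not called when any of 8 libraries was left out, B3gnt5 for any of 7, and Tm4sf1 without sham 1 (0.63), sham 2 or HBO 2. B3gnt5 was also not called in the fit of HBO and sham alone (1.43), or by limma on log2 FPKM, where its value was 0.64. Nor was Aspg called in these alternatives. Serpina3n was not called without sham 2 (1.05), HBO 2 or HBO 3, Srgn without sham 2 or HBO 3 (1.41), and Id3 without sham 1 (1.03).

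Of the genes called in SCI, 5 gave no call in HBO against sham. The values in HBO were 0.91 ± 0.35 for Hspb1 (edgeR adjusted p = 0.0728), 0.56 ± 0.22 for S1pr3 (edgeR adjusted p = 0.0779) and 0.60 ± 0.31 for Tgm1 (edgeR adjusted p = 0.166). They were 0.57 ± 0.33 for Fkbp5 (edgeR adjusted p = 0.216) and 0.39 ± 0.25 for Clcf1 (edgeR adjusted p = 0.269). Without sham 3, Hspb1, S1pr3, Tgm1 and Steap4 were called higher in HBO. Since none of the 5 was called in HBO against SCI, a difference between the injured groups was not shown for them. The other uncalled differences in HBO against sham were 1.44 ± 0.75 for Steap4, 0.15 ± 0.14 for Synm, 0.08 ± 0.14 for Sox9, 0.49 ± 0.36 for Ptx3, 0.53 ± 0.26 for Sphk1, 0.51 ± 0.35 for Cd14 and -0.19 ± 0.64 for Lcn2, all with overlapping groups. Amigo2 was the only member whose HBO libraries (5.21 to 8.28 CPM) all lay below the sham libraries (8.35 to 10.4 CPM), at -0.52 ± 0.20 (edgeR adjusted p = 0.0769); it was called lower without HBO 2, at -0.72.

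The same libraries were often highest or lowest across the genes. HBO 2 was the highest HBO library for 23 of the 31 tested genes, SCI 1 the highest SCI library for 24, and sham 3 the highest sham library for 22, with sham 1 lowest for 22. The median coefficient of variation over the genes was 23.6% in HBO, 17.7% in SCI and 30.6% in sham. Sums of marker genes of other cells also differed by library. HBO 2 had the highest fibroblast sum of the HBO libraries (10810 CPM, against 5248 and 7341 CPM) and the highest myeloid sum (3007 CPM, against 1403 and 2157 CPM), and SCI 1 had the highest fibroblast sum of the SCI libraries (10040 CPM, against 7570 and 4201 CPM). Sham 3 had the highest fibroblast sum (502 CPM, against 148 and 270 CPM) and myeloid sum (363 CPM, against 201 and 315 CPM) of the sham libraries. Their part in the levels of the marker genes was not tested.

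**Figure D4:**
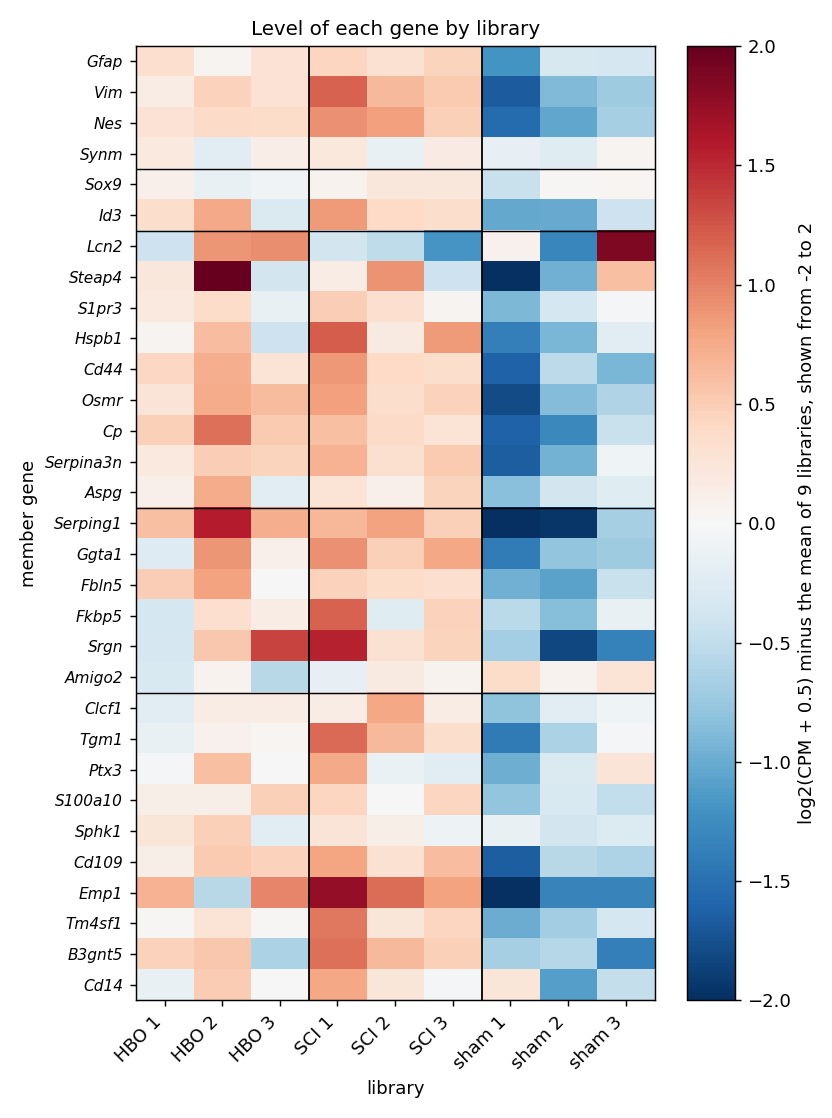
Level of the 31 tested genes (rows, by role) in the 9 libraries (columns), as the log2 level minus the mean of the gene over the libraries, with colours clipped at both ends of the scale. Most rows are blue in the sham libraries, deepest in sham 1, and reddest in SCI 1 and HBO 2, while Lcn2 is reddest in sham 3.

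Markers of other cells changed after injury as well. Over all tested genes, edgeR called 20.0% higher and 16.6% lower in SCI against sham. In HBO against sham these shares were 17.4% higher and 13.5% lower. The summed level of 8 myeloid markers was 1403 to 3007 CPM in HBO, 2088 to 2837 CPM in SCI and 201 to 363 CPM in sham, and 8 of 8 rose in each injured group. That of 6 fibroblast markers was 5248 to 10810 CPM in HBO, 4201 to 10040 CPM in SCI and 148 to 502 CPM in sham, and 6 of 6 rose in each. The 12 genes of resting astrocytes, such as glutamate transporters, had sums of 9370.0 to 11430 CPM in HBO, 9367 to 11620 CPM in SCI and 11830 to 12770 CPM in sham, so that every injured library lay below every sham library by a small margin. Slc1a2 had the highest mean of the 12, at 3484 CPM in HBO, 3333 CPM in SCI and 4759 CPM in sham. The list as a whole moved little, with median log2 fold changes of -0.09 in HBO (5 of 12 above 0) and -0.04 in SCI (3 above 0) against sham. DESeq2 called 4 of the 12 lower in each injured group against sham. By edgeR, Aldh1l1, a folate enzyme specific to astrocytes, rose in SCI (log2 0.42 ± 0.10, edgeR adjusted p = 0.00875), while Slc1a2, the main glutamate transporter, and Fgfr3, a growth factor receptor, fell (-0.51 ± 0.16 for Slc1a2, -0.48 ± 0.14 for Fgfr3). In HBO against sham, Fgfr3 (-0.58 ± 0.14) and Aldoc, an aldolase of astrocytes (-0.43 ± 0.14), fell and 0 rose by edgeR, DESeq2 or limma, with 2 higher at an unadjusted p under 0.05. No marker of the astrocyte list was at 0 counts in any group, and the tissue carried the neuron and oligodendrocyte markers of spinal cord. The 7 neuron markers fell, 7 of 7 in HBO (median log2 -0.98) and 7 of 7 in SCI (median log2 -1.32) against sham, with sums of 1136 to 2062 CPM in HBO, 954 to 1559 CPM in SCI and 2958 to 3499 CPM in sham. Of 5 oligodendrocyte markers, 2 fell in SCI. Microglia markers rose in 3 of 5 and endothelial markers in 4 of 5 in each injured group, and no ependymal marker of 4 was called by edgeR, DESeq2 or limma or had an unadjusted p under 0.05.

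**Figure D5:**
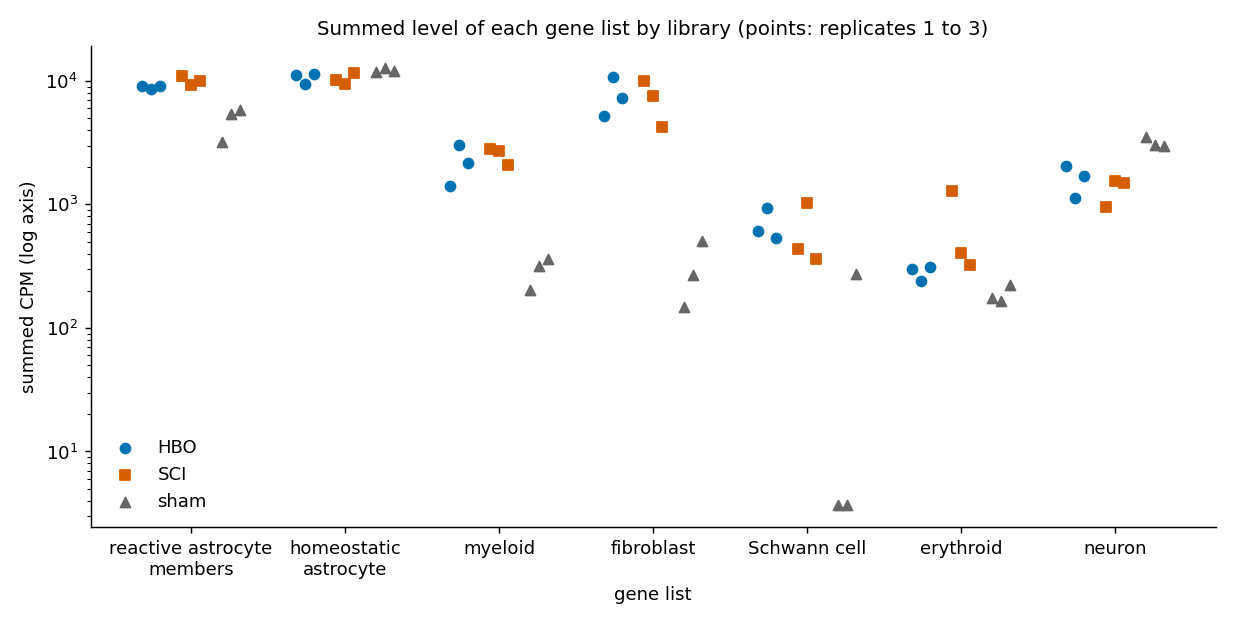
Summed CPM of the 32 reactive astrocyte genes and of 6 marker lists in each library on a log axis, HBO left of SCI and SCI left of sham. The reactive genes sum to 8547 to 9095 CPM in HBO, 9324 to 10890 CPM in SCI and 3180 to 5870 CPM in sham, and the homeostatic astrocyte genes lie between 9367 and 12770 CPM in all 9.

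Genes that act on astrocytes to start this response were read from further lists. Of 19 tested genes for inducing signals and their receptors, 11 rose in SCI and 0 fell by edgeR, DESeq2, limma or at an unadjusted p under 0.05. The smallest p values were those of Tgfb1 (log2 1.998 ± 0.209), C1qa (2.13 ± 0.24), the receptor Tgfbr2 (1.85 ± 0.22) and the tumour necrosis factor receptor Tnfrsf1a (1.44 ± 0.21). In HBO against sham 11 also rose. Over all tested genes, edgeR called 20.0% higher in SCI and 17.4% higher in HBO against sham. In HBO against SCI 0 of 19 were called by edgeR, DESeq2 or limma. The vessel peptide Edn1 (-0.86 ± 0.33) was the 1 gene at an unadjusted p under 0.05, against 4.18% of all tested genes. Of 17 genes for transducers of these signals, 13 rose in SCI and 11 in HBO against sham, among them the antioxidant factor Nfe2l2 (1.23 ± 0.19 in SCI), the AP-1 subunit Fosl2 (1.42 ± 0.24 in SCI), Smad3 (0.68 ± 0.12 in SCI) and Stat3 (0.60 ± 0.12 in SCI). In HBO against SCI 0 of 17 were called by any of these tools. At an unadjusted p under 0.05 there were 2, Fosl1 (1.11 ± 0.38) and Notch1 (-0.34 ± 0.12), against 4.18% of all tested genes. Fosl1 was low, with means of 1.83 CPM in HBO, 0.837 CPM in SCI and 0.293 CPM in sham.

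Of 11 genes of the glial scar matrix, 8 rose in SCI and 0 fell by edgeR, DESeq2 or limma, while 2 were lower at an unadjusted p under 0.05. Lgals3, a lectin of phagocytes, rose by 3.32 ± 0.37, the matrix proteins Tnc by 2.93 ± 0.38 and Vcan by 1.46 ± 0.20, and Cspg4, a proteoglycan of oligodendrocyte precursors and pericytes, by 1.06 ± 0.17. In HBO against sham 5 rose and Bcan, a proteoglycan of perineuronal matrix, fell (-0.43 ± 0.13). Over all tested genes, edgeR called 20.0% higher in SCI and 17.4% higher in HBO against sham. In HBO against SCI 0 were called by any of these tools. Tnc (-0.80 ± 0.35) and Cspg4 (-0.48 ± 0.17) were lower at an unadjusted p under 0.05, against 4.18% of all tested genes in either direction. For Tnc the groups overlapped, with means of 176 ± 9.18 CPM in HBO and 305.5 ± 167.1 CPM in SCI (SD, n = 3 each). The 11 genes summed to 1345, 1710 and 1406 CPM in HBO and 2497, 1680 and 1410 CPM in SCI, highest in SCI 1.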

How the data were processed

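The authors' deposited count for each gene is a raw read count, and their deposited FPKM was used only for levels between genes and in 1 alternative test. Alignment was with HISAT2 and the genome build was GRCm38 (mm10), per the submitters' processing notes. No counting tool, strand setting, read length or annotation release is given in the sources used here. Counts of 9 libraries (3 per group, 11159587 to 15715484 counts) were fitted with edgeR 4.0.16 (R 4.3.3): filterByExpr (minimum count 10, 17901 genes kept), TMM scaling, 1 mean per group over all libraries, glmQLFit and glmQLFTest, with Benjamini-Hochberg adjustment over all kept genes. Adjusted p values are from edgeR unless DESeq2 1.42.0 or limma 3.58.1 is named; limma used log2(FPKM + 0.1). The SE was taken as |log2 fold change| over the root of F. CPM are TMM-scaled. The edgeR fit was also run on simulated counts without outlying libraries, and that run does not bear on such libraries here. Replicates of a group differed by more than counting noise.

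The members, their roles, the companion lists and the motifs were chosen with earlier results of these data known. All members are named; values per library are given for the 3 of each role with the smallest p in SCI against sham, the 4 with the smallest p in each HBO comparison, and Gfap, Vim, Lcn2, Serpina3n and Slc10a6. Of the companion lists, up to 4 called genes with the smallest p are named, with others chosen after their values were seen. All 31 tested genes but B3gnt5 passed the filter in the sham libraries alone.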

Additional observations from a re-analysis of the deposited data

How the results depend on the processing

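Alternatives were RLE factors, library totals, DESeq2, no filter on low counts, limma on log2 FPKM, a fit of only the groups compared, the replicate block, and leaving out each library. With 1 library left out, 20 to 23 of the 31 tested members were called for SCI against sham and 13 to 20 for HBO against sham. The 20 without sham 2 for SCI against sham included Lcn2, called lower. Slc10a6, which passed the filter without sham 3 through injured libraries only, is left out of these counts. In every alternative 0 were called for HBO against SCI. Correlations of deviations from the group mean were -0.179 to 0.138 for same-numbered libraries and -0.203 to 0.25 for the others. Deviations centred within groups of 3 libraries cannot settle whether the numbers mark pairs. With the replicate block, 21 members were called for SCI against sham, S1pr3 and Aspg no longer among them, and 16 for HBO against sham, Aspg and Tm4sf1 no longer among them. The call of Aspg in HBO against sham was also lost with RLE factors, library totals, limma or the fit of only the groups compared. No called member changed direction in any alternative.

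Some uncalled differences of HBO against SCI changed sign. With 1 library left out their log2 values ranged from -0.14 to 0.078 for Synm, -0.49 to 0.020 for Id3, -0.36 to 1.13 for Steap4, -0.22 to 0.10 for Cd44, -0.10 to 0.16 for Osmr, -0.34 to 0.18 for Aspg, -0.12 to 0.27 for Fbln5, -0.72 to 0.30 for Srgn, -0.23 to 0.42 for Ptx3, -0.19 to 0.013 for S100a10, -0.076 to 0.30 for Sphk1 and -0.45 to 0.052 for Cd14. For Osmr the value was -0.0001 with no filter and -0.031 with the replicate block. In HBO against sham, Sox9 ranged from -0.069 to 0.15 and Lcn2 from -0.66 to 1.05, with 0.24 for Lcn2 under limma and 0.029 with the replicate block. The cause was not tested.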

Other observations

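The lipopolysaccharide set in mouse astrocytes also holds genes of antigen presentation, the interferon response and complement (C3). They were read as a separate list of 6 genes. In HBO against sham, 6 of 6 rose, against 3 of 6 in SCI against sham (H2-T23, H2-D1 and Psmb8). DESeq2 called 6 higher in HBO and 4 in SCI. Over all tested genes, edgeR called 17.4% higher in HBO and 20.0% higher in SCI against sham. In HBO against SCI, 0 of 6 were called by edgeR, DESeq2 or limma, so a difference between the injured groups was not shown. All 6 had a log2 difference above 0, with a median of 0.58, against 49.46% of all tested genes above 0. At an unadjusted p under 0.05 there were 4, against 4.18% of all tested genes. Their summed level was 937, 1227 and 930.4 CPM in HBO, 797, 742 and 754 CPM in SCI, and 306, 411 and 575 CPM in sham, so the 3 groups did not overlap. C3 had the highest mean of the 6, at 535 CPM in HBO, 423 CPM in SCI and 246 CPM in sham. Gene by gene, the HBO and SCI libraries overlapped for C3 (log2 0.34 ± 0.33, edgeR adjusted p = 0.959), Gbp2 and Psmb8. Those of SCI and sham overlapped for C3 and Iigp1.

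Iigp1, an interferon-induced GTPase, averaged 32.0 CPM in HBO, 10.8 CPM in SCI and 10.2 CPM in sham, a log2 difference of 1.56 ± 0.41 in HBO against SCI (edgeR adjusted p = 0.916). H2-T23, a non-classical class I molecule, averaged 42.5 CPM in HBO, 25.8 CPM in SCI and 13.1 CPM in sham, and differed by 0.72 ± 0.22 in HBO against SCI (edgeR adjusted p = 0.959). Gbp2, a guanylate-binding protein, differed by 0.70 ± 0.24 and the class I gene H2-D1 by 0.47 ± 0.17 in HBO against SCI (edgeR adjusted p = 0.959 for each). For Iigp1, H2-T23 and H2-D1 every HBO library lay above every SCI library, which was so for 3.96% of all tested genes. The pan-reactive gene Timp1, an inhibitor of matrix proteases, rose by 1.87 ± 0.47 in HBO (edgeR adjusted p = 0.0138) and by 2.27 ± 0.47 in SCI against sham (edgeR adjusted p = 0.0047), and Ptgs2, the inducible cyclooxygenase of the ischaemia set, rose by 1.72 ± 0.51 in HBO (edgeR adjusted p = 0.0281) and by 1.55 ± 0.51 in SCI (edgeR adjusted p = 0.036).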
